A study of Homo sapiens with 8 samples.

Results

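Nascent transcription of histone and DNA modifying enzymes was described across proliferating and senescent human fibroblasts. The set comprised 58 genes chosen by name, as the rows of the count table whose gene symbol is on a list of chromatin writers, erasers and their core partners, and it held 58 of the 27945 rows. By role these were 8 methyltransferases of histone H3 lysine 4, 4 of lysine 36, 6 of lysine 9 and 1 of lysine 79, the SET domain protein SETD5, 5 subunits of Polycomb repressive complex 2 (PRC2), 12 lysine demethylases, the 2 ASXL partners of the H2A deubiquitinase, 7 acetyltransferases, 3 class I and 4 class IIa deacetylases, 2 DNA methyltransferases and 3 TET dioxygenases.

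The cells were IMR90, primary human lung fibroblasts, and transcripts in progress were measured by fastGRO-seq, in which polymerases in isolated nuclei extend the RNA already in progress with a labelled nucleotide so that it can be captured and sequenced. Control cells were labelled WT and control, with no hairpin and no statement on the RAS construct. Senescent cells were obtained from ER:RAS cells, in which 4-hydroxytamoxifen (4-OHT) activates an oncogenic RAS fusion protein. The study's general methods give 100 nM 4-OHT and a harvest on day 6 for checking RAS and senescence markers. The labels give neither a dose nor a day for the fastGRO-seq samples. The construct was delivered by retrovirus and selected with G418. The senescent cells carried shControl, shMETTL3 or shMETTL14, lentiviral hairpins of which 1 sequence per gene was used, and each of the 4 groups had 2 libraries. METTL3 and METTL14 form the RNA methyltransferase that makes N6-methyladenosine. Senescence and hairpin infection therefore cannot be told apart in the comparison of shControl with control cells, nor a target from its 1 hairpin in the knockdowns.

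Histone tails are methylated and acetylated by writers and cleared by erasers, and the marks differ in meaning with their position. Methylation of H3 lysine 4 and acetylation accompany active promoters and enhancers, methylation of lysine 36 and lysine 79 follows transcribing polymerase, and methylation of lysine 9 and lysine 27 accompanies silent chromatin. In senescent fibroblasts chromatin is known to be reorganised, heterochromatin foci can form, and Polycomb silencing of the CDKN2A locus is known to be lost.

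Library totals were 14897360 to 20306299 counts, of which 86.25% to 92.54% lay in 21 ribosomal RNA rows, so 1513930 to 2048475 counts per library described all other genes. The ribosomal share differed between the groups, at 89.87% and 89.92% in control libraries, 92.1% and 92.54% under shControl, 86.25% and 88.38% under shMETTL3 and 90.42% and 91.25% under shMETTL14, so that it was highest under shControl. Its part in the members' changes was not tested beyond a fit without these rows, in which 17 members fell and 4 rose in senescence, 2 and 12 after METTL3 knockdown and 8 and 8 after METTL14 knockdown. Over all genes that fit called 1596 lower and 1796 higher in senescence, 1359 and 1633 after METTL3 knockdown and 1531 and 1172 after METTL14 knockdown. The members had 0.513% to 0.610% of the counts outside the ribosomal RNA rows. The study calls its fastGRO-seq replicates biologically independent, whereas the labels do not say what was kept separate between the samples of a group, and p-values measure the spread between these samples. In fibroblast markers the summed level was 19600 to 21000 CPM (counts scaled to a common total outside ribosomal RNA) in control cells and 8890 to 16500 in senescent groups, and COL1A1, COL1A2, FN1 and VIM each had at least 700 counts in every library. Of 14 fibroblast markers tested, 10 fell and 1 rose in senescent shControl cells, 9 fell after METTL14 knockdown, and 4 rose and 2 fell after METTL3 knockdown. The summed level was 11.2 to 46.7 CPM for 6 epithelial markers, 9.70 to 69.9 for 5 endothelial and 9.12 to 41.6 for 5 leukocyte markers, with at most 2 raw counts of CDH1, 2 of CDH5 and 4 of PTPRC in any library, and ESRP1 and CD3E were at 0 in all 8. Of the markers in these lists that reached 20 counts in any library, CD68 had 17 and 16 raw counts in control libraries and 60 and 45 under shControl, and TEK had 105 and 123 in control libraries, 37 and 48 under shControl and 13 and 26 under shMETTL14. The epithelial keratin KRT18 had 23 and 24 in control libraries, 25 and 15 under shControl, 12 and 13 under shMETTL3 and 43 and 32 under shMETTL14. Its partner KRT8 had 26 and 28, 20 and 11, 9 and 10, and 25 and 23 in the same order, and both were called higher with shMETTL14 than with shMETTL3. Among 28 proliferation genes, 23 were tested and 12 fell in senescent shControl cells (median log2 fold change -1.34), with a summed level of 661 to 701 CPM in control cells and 190 to 287 in shControl cells. Of the same 23 genes, 7 fell after METTL3 knockdown and 6 after METTL14 knockdown relative to shControl. The part of this list in the members' changes was not tested, and in bulk libraries fewer cells transcribing a gene and less RNA per cell cannot be told apart.

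The targeted genes were examined before the members. METTL3 had 77 and 47 raw counts under shControl and 16 and 19 under shMETTL3, a fall that passed the test (log2 fold change -2.04, SE 0.31, edgeR adjusted p = 1.8e-05). METTL14 had 24 and 28 raw counts under shControl and 18 and 14 under shMETTL14, and this difference did not pass the threshold (log2 fold change -0.86, SE 0.34, edgeR adjusted p = 0.076). Both libraries labelled shMETTL14 were below both shControl libraries for METTL14, but with fewer than 30 counts each. METTL14 had 60 and 55 raw counts in control libraries and 41 and 48 under shMETTL3, so it was already lower in senescent shControl cells (log2 fold change -0.76, SE 0.28, edgeR adjusted p = 0.047), and it was called lower with shMETTL14 than with shMETTL3 (log2 fold change -1.41, SE 0.32, edgeR adjusted p = 0.001) and than in control cells (log2 fold change -1.61, SE 0.31, edgeR adjusted p = 0.00012).

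The header of the count table names counting on the strand opposite to each gene. A gene nested in another of the other orientation did not exceed its host in 60 of 61 such pairs in counts, but a longer host can also exceed a nested gene without sharing its reads. Whether reads of a member are separated from those of a gene overlapping it in the other orientation was therefore not settled. The test in each comparison was edgeR's quasi-likelihood test over the 12844 genes that passed a filter on low counts, and a gene was called where its Benjamini-Hochberg adjusted p was below 0.05. Of the 58 members, 57 were tested, and SUV39H1 had too few counts. Values below are normalised counts, that is, counts scaled to a common effective library size, unless raw counts are named. In senescent shControl against control cells 18 of 57 members (31.6%) fell and 3 (5.26%) rose, whereas 13.3% of all genes tested were called lower and 13.3% higher. The median log2 fold change was -0.17 over the members and -0.03 over all genes. With 1 library left out the members' median was -0.19 (without control replicate 2) to -0.077 (without control replicate 1). With an offset for gene length it was -0.098, beside -0.012 over all genes. Members also had more counts than most genes, with a median of 139 per library over the members against 48.3 over all genes tested. The number that fell was 6 without shControl replicate 1, 7 without control replicate 1, 9 without shControl replicate 2 and 7 with DESeq2. Over all genes the number called lower went from 1702 to 763, 994, 1092 and 908 in these settings, so fewer calls were made over all genes as well. All 4 groups share 1 estimate of the spread in the fit. Whether a call held is given below over 19 alternative settings, which are other normalisations, filters, tests and fits, each library left out in turn, and offsets for gene length and GC content. Where a call was lost without a library, the range of log2 fold changes with 1 library left out follows in parentheses. The stricter threshold of 0.01 is among the settings, and its losses are not repeated below because the adjusted p shows them.

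After METTL3 knockdown, in a comparison that shares the shControl libraries with the one above, 11 of 57 members (19.3%) rose and 2 (3.51%) fell relative to shControl, with 12.3% of all genes called higher and 11.2% lower. Their median was 0.10 on the log2 scale against -0.03 over all genes, and it was -0.01 with an offset for gene length. With 1 library left out it was 0.037 (without shMETTL3 replicate 1) to 0.16 (without shControl replicate 2). Over all genes these 2 settings gave -0.076 and -0.013. After METTL14 knockdown 8 of 57 members rose and 8 fell, with 9.15% of all genes called higher and 12% lower, and medians of 0.06 and -4.9e-05. Tested directly against each other, shMETTL14 was higher than shMETTL3 in 4 members (7.02%) and lower in 15 (26.3%), beside 16.5% and 18.7% of all genes. The median of this difference was -0.11 over the members and 0.01 over all genes, and with an offset for gene length 0.016 and 0.00026. These counts moved with single libraries, and so did the counts over all genes. After METTL3 knockdown 6 members rose without either shControl replicate and 7 without shMETTL3 replicate 2, while 1 fell without either shControl replicate and 6 without shMETTL3 replicate 1. Over all genes the number called higher went from 1574 to 885 and 769 without shControl replicates 1 and 2 and to 1110 without shMETTL3 replicate 2, and the number called lower went from 1434 to 853 and 723 without the shControl replicates and to 2060 without shMETTL3 replicate 1. After METTL14 knockdown 1 rose without shControl replicate 2 or shMETTL14 replicate 1, 2 without shControl replicate 1, 3 without shMETTL14 replicate 2, and 4 or 5 without a control replicate, and 4 fell without shControl replicate 2 or shMETTL14 replicate 1. Over all genes the number called higher went from 1175 to 509, 486, 554 and 819 in the first 4 of these settings and to 1077 and 1086 without a control replicate, and the number called lower went from 1545 to 873 and 784. In the direct comparison 9 were lower without shMETTL14 replicate 1 and 7 were higher without shMETTL3 replicate 1, beside 1409 rather than 2399 of all genes lower and 2697 rather than 2118 higher.

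Both knockdowns were also set against control cells, and these comparisons share the control libraries with the senescence comparison. Relative to control, 12 members rose and 14 fell with shMETTL3, beside 20.1% and 20.1% of all genes, and 8 rose and 16 fell with shMETTL14, beside 19.7% and 20.5%. The plot of log2 fold changes gives every member in the 4 main comparisons.

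**Figure D1:**
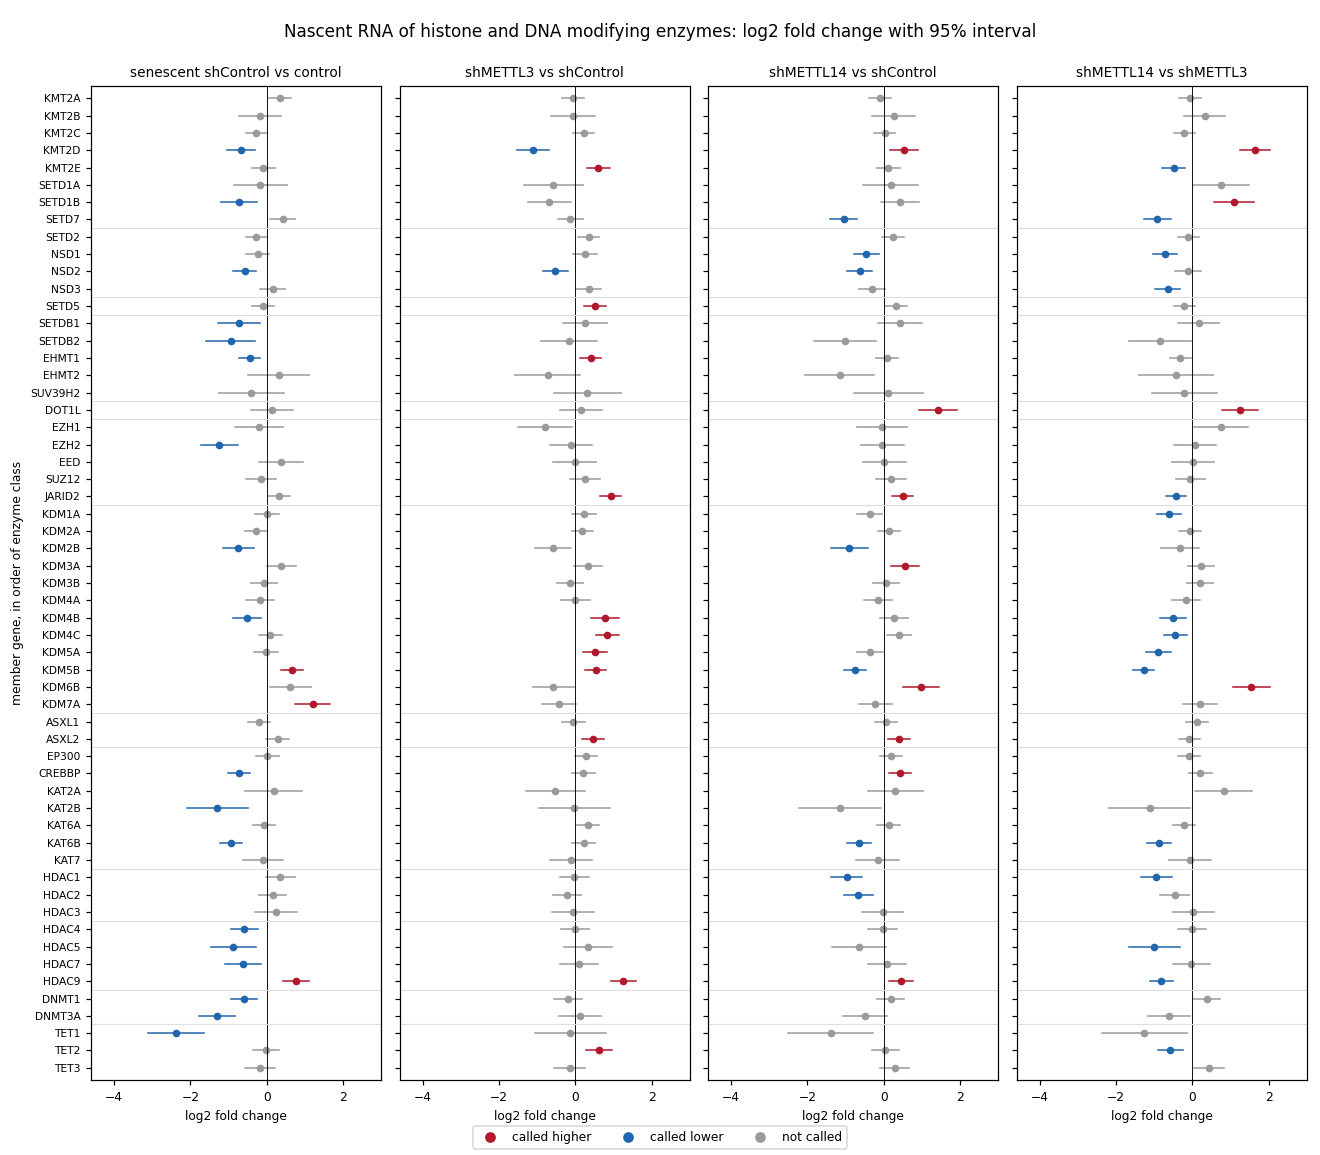
Log2 fold change (x axis) of the 57 tested members (y axis, in order of enzyme class) in 4 comparisons, with points for the estimate, lines for the 95% interval of the edgeR fit, and colour for called higher, called lower or not called. TET1 has the lowest value in senescence (-2.38) and HDAC9 the highest after METTL3 knockdown (1.26), and more members are called lower (18) than higher (3) in senescence.

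Among the 8 lysine 4 methyltransferases, KMT2D and SETD1B fell in senescence and the other 6 were not called. Over all genes 13.3% were called lower and 13.3% higher. KMT2D (chr12:49412758-49449107, hg19), which with KMT2C monomethylates lysine 4 at enhancers, had 271 and 241 normalised counts in control libraries, 155 and 166 under shControl, 96.4 and 53.2 under shMETTL3 and 239 and 224 under shMETTL14. Both shControl libraries were below both control libraries (log2 fold change -0.67, SE 0.17, edgeR adjusted p = 0.0046). The shMETTL3 libraries were lower still (log2 fold change -1.11, SE 0.20, edgeR adjusted p = 0.0002), and those with shMETTL14 were above shControl (log2 fold change 0.53, SE 0.18, edgeR adjusted p = 0.034). Set directly against each other, KMT2D was 3.12-fold higher with shMETTL14 than with shMETTL3 (log2 fold change 1.64, SE 0.19, edgeR adjusted p = 2.7e-07), the largest called difference of any member between the knockdowns. Relative to control cells KMT2D was -0.14 (SE 0.17) on the log2 scale with shMETTL14, which was not called, and -1.78 (SE 0.19) with shMETTL3. The fall in senescence was lost without control replicate 1 or shControl replicate 1 (-0.75 to -0.58 with 1 library left out), the fall after METTL3 knockdown was lost with library size alone, and the rise after METTL14 knockdown was lost without any 1 library of shControl or shMETTL14 or without control replicate 1 (0.46 to 0.58 with 1 library left out) and with DESeq2. The direct difference was called in all 19 alternative settings.

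SETD1B, a catalytic subunit of a COMPASS complex that trimethylates lysine 4, had 74.4 and 77.5 normalised counts in control libraries, 43.7 and 47.9 under shControl, 32.8 and 24.7 under shMETTL3 and 65 and 57.9 under shMETTL14. It fell in senescence (log2 fold change -0.73, SE 0.23, edgeR adjusted p = 0.021), and this call was lost without any 1 library of control or shControl (-0.78 to -0.66 with 1 library left out) and with DESeq2. The difference between the knockdowns was called (log2 fold change 1.10, SE 0.26, edgeR adjusted p = 0.0016), although neither knockdown was called against shControl (-0.68 and 0.42 on the log2 scale), and the call between the knockdowns was lost with an offset for GC content. KMT2E, a member of the family thought to lack methyltransferase activity, had 328 and 355 normalised counts under shControl and 488 and 549.8 under shMETTL3, with no overlap between the groups (log2 fold change 0.60, SE 0.15, edgeR adjusted p = 0.0033). This call was lost without shControl replicate 1 (0.50 to 0.67 with 1 library left out). With shMETTL14 KMT2E had 321 and 421 normalised counts, on both sides of shControl (log2 fold change 0.12). It was lower than with shMETTL3 (log2 fold change -0.49, SE 0.14, edgeR adjusted p = 0.01), a call that was lost without shMETTL3 replicate 2 or shMETTL14 replicate 1 (-0.69 to -0.32 with 1 library left out) and with only the 2 groups fitted, an offset for gene length or an offset for GC content.

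SETD7 (chr4:140417089-140477923), which monomethylates lysine 4 and several proteins other than histones, showed the opposite order to KMT2D between the knockdowns. It had 144 and 154 normalised counts in control libraries, 218 and 181 under shControl, 174 and 189.9 under shMETTL3 and 88 and 105 under shMETTL14. The shMETTL14 libraries lay below all the others, at 2.06-fold less than shControl (log2 fold change -1.04, SE 0.17, edgeR adjusted p = 5.4e-05) and 1.89-fold less than shMETTL3 (log2 fold change -0.92, SE 0.17, edgeR adjusted p = 0.00014), and both calls held in all 19 alternative settings. KMT2A, KMT2B, KMT2C and SETD1A were called in none of the 4 comparisons. KMT2A, the founding MLL protein, was 0.34 in senescence (95% interval 0.051 to 0.63, edgeR adjusted p = 0.076), and KMT2C, the relative of KMT2D, was -0.27 (95% interval -0.54 to 0.0033, edgeR adjusted p = 0.14). KMT2A shares 16.5% of its span with a neighbour on the opposite strand.

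Of the 4 lysine 36 methyltransferases, NSD2 fell in senescence and after either knockdown. NSD2 (chr4:1873123-1983934, hg19) dimethylates lysine 36. It had 289 and 260.4 normalised counts in control libraries, 176 and 192 under shControl, 121 and 135 under shMETTL3 and 114 and 124 under shMETTL14, so that the groups did not overlap except shMETTL3 with shMETTL14. The fall in senescence was -0.57 (SE 0.15, edgeR adjusted p = 0.0043) on the log2 scale. The further fall was -0.53 (SE 0.16, edgeR adjusted p = 0.018) with shMETTL3 and -0.63 (SE 0.16, edgeR adjusted p = 0.0058) with shMETTL14, and the difference between the knockdowns was not called (log2 fold change -0.11, edgeR adjusted p = 0.66, 95% interval -0.45 to 0.24). When libraries were scaled by size alone and not by TMM (trimmed mean of M-values), where the median of all genes moved to 0.58 after METTL3 knockdown, NSD2 was 0.09 in that comparison. The fall in senescence was lost without control replicate 1 or shControl replicate 1 (-0.64 to -0.49 with 1 library left out), that after METTL3 knockdown was lost without either shControl replicate (-0.63 to -0.47 with 1 library left out) and with DESeq2 or library size alone, and that after METTL14 knockdown was lost without shControl replicate 2 or shMETTL14 replicate 1 (-0.70 to -0.57 with 1 library left out) and with library size alone. NSD2 was 2.14-fold lower with shMETTL3 and 2.31-fold lower with shMETTL14 than in control cells.

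The promoter of NSD2 is shown because, among 53 members with a promoter in the RefSeq table, only NSD2 and SUZ12 held the E2F letters TTTCCCGC on either strand. The table gives 250 bases before and 50 after each transcription start of build GRCh38.p14, and only the bases before the start are printed here, for chr4:1871143-1871392 on the plus strand. Capitals mark TTTGAA, the letters of the cell-cycle homology region (CHR), and then TTTCCCGC, which begins 77 bases before the start and does not overlap the first.
NSD2: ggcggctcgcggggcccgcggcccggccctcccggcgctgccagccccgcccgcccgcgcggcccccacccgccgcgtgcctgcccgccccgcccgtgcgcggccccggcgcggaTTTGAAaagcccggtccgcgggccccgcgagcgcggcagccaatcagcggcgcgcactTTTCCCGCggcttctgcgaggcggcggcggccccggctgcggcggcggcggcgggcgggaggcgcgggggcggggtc
Of all 35116 promoter windows 1.63% held TTTCCCGC and 15.2% held TTTGAA, on either strand. Of the 90 windows of members, 2.22% and 13.3% held them. The table had no entry for DOT1L, HDAC5, KAT6A, NSD3 and SETD1B.

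NSD1 and NSD3, relatives of NSD2 with the same activity, were not called in senescence (log2 fold changes -0.24 and 0.15). NSD1 had 239 and 298 normalised counts under shControl, 358 and 284 under shMETTL3 and 192 and 200.1 under shMETTL14. The shMETTL14 libraries were the lowest (log2 fold change -0.46, SE 0.16, edgeR adjusted p = 0.036), and the difference from shMETTL3 was larger (log2 fold change -0.71, SE 0.15, edgeR adjusted p = 0.00062). The former was lost without any 1 library of control or shMETTL14 or without shControl replicate 2 (-0.61 to -0.29 with 1 library left out) and with DESeq2, library size alone or an offset for gene length, and the latter was lost with an offset for gene length. NSD3 had 233 and 327 normalised counts under shMETTL3 and 168 and 189.6 under shMETTL14 (log2 fold change -0.65, SE 0.16, edgeR adjusted p = 0.0023), and this call was lost without shMETTL3 replicate 2 (-0.86 to -0.36 with 1 library left out). SETD2, which trimethylates lysine 36 and travels with polymerase, was called in none of the 4 comparisons, with 0.35 (edgeR adjusted p = 0.061) after METTL3 knockdown. SETD5, a SET domain protein whose own activity is debated, rose after METTL3 knockdown (log2 fold change 0.52, SE 0.14, edgeR adjusted p = 0.0087), and this call was lost without shControl replicate 2 or shMETTL3 replicate 2 (0.34 to 0.64 with 1 library left out).

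Of the 6 lysine 9 methyltransferases, 3 fell in senescence, none rose, 2 were not called and SUV39H1 was not tested. Over all genes 13.3% were called lower and 13.3% higher. EHMT1, which with EHMT2 mono- and dimethylates lysine 9, fell in senescence (log2 fold change -0.45, SE 0.13, edgeR adjusted p = 0.014) and rose after METTL3 knockdown (log2 fold change 0.41, SE 0.14, edgeR adjusted p = 0.029). SETDB1, which trimethylates lysine 9 at retroelements, was -0.73 (SE 0.26, edgeR adjusted p = 0.041) in senescence, and its relative SETDB2 was -0.94 (SE 0.31, edgeR adjusted p = 0.026). The fall of EHMT1 was lost without any 1 library of control or shControl (-0.47 to -0.40 with 1 library left out) and with DESeq2 or an offset for gene length. The fall of SETDB1 was lost without any 1 library of control or shMETTL14 or without shControl replicate 2 (-1.10 to -0.41 with 1 library left out) and with DESeq2 or no filter on low counts, and that of SETDB2 was lost without either shControl replicate or without control replicate 1 (-1.20 to -0.71 with 1 library left out) and with DESeq2. The rise of EHMT1 was lost without any 1 library of control or shControl or without shMETTL3 replicate 2 (0.36 to 0.43 with 1 library left out) and with DESeq2, no filter on low counts, only the 2 groups fitted or an offset for gene length. SETDB2 lies wholly inside the read-through gene SETDB2-PHF11, with which it shares its reads. EHMT2 had 10 to 21 raw counts per library and was called in none of the 4 comparisons (after METTL14 knockdown, log2 fold change -1.15, edgeR adjusted p = 0.062).

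SUV39H1 and SUV39H2 trimethylate lysine 9 in pericentromeric heterochromatin, and both were at the edge of detection. SUV39H1 had 12 and 8 raw counts in control libraries, 3 and 4 under shControl, 5 and 6 under shMETTL3 and 7 and 2 under shMETTL14. SUV39H2 had 21 and 29 raw counts in control libraries, 8 and 21 under shControl, 21 and 21 under shMETTL3 and 17 and 18 under shMETTL14, and it shares 26.5% of its span with DCLRE1C on the opposite strand. Its groups overlapped in senescence (log2 fold change -0.40, edgeR adjusted p = 0.53), where a change was not detectable at this depth (95% interval -1.26 to 0.45).

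DOT1L (chr19:2164148-2232577, hg19), the methyltransferase of lysine 79, had the largest called rise of any member after METTL14 knockdown. It had 64.7 and 54.9 normalised counts in control libraries, 54.4 and 76.8 under shControl, 102 and 46.5 under shMETTL3 and 174 and 177 under shMETTL14. The other 6 libraries lay well below the shMETTL14 libraries, and the shMETTL3 libraries lay on both sides of those with shControl. The rise was 2.66-fold against shControl (log2 fold change 1.41, SE 0.24, edgeR adjusted p = 9.5e-05) and 2.39-fold against shMETTL3 (log2 fold change 1.25, SE 0.23, edgeR adjusted p = 0.00013), and both were called in all 19 alternative settings. The log2 difference from shMETTL3 was 1.93 without shMETTL3 replicate 1, 0.80 without shMETTL3 replicate 2 and 0.70 with an offset for GC content. In senescence itself DOT1L was not called (log2 fold change 0.14, edgeR adjusted p = 0.76). DOT1L shares 3.84% of its span with PLEKHJ1 on the opposite strand.

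PRC2 methylates lysine 27 through EZH1 or EZH2, with EED and SUZ12 as core subunits and JARID2 as an accessory subunit that helps to target it. Of these 5, EZH2 fell in senescence and JARID2 rose after both knockdowns. EZH2 (chr7:148504464-148581441, hg19) had 85 and 94 normalised counts in control libraries, 36.6 and 39 under shControl, 36.9 and 33.2 under shMETTL3 and 38 and 35.8 under shMETTL14. The 6 senescent libraries lay together, far below the control libraries, with a 2.36-fold fall (log2 fold change -1.24, SE 0.24, edgeR adjusted p = 0.00021) that was called in all 19 alternative settings. Neither knockdown was called for EZH2, with -0.11 (95% interval -0.67 to 0.45) and -0.035 (95% interval -0.59 to 0.52) on the log2 scale. EZH2 is known as a gene of dividing cells. In the same comparison 12 of 23 proliferation genes fell, beside 13.3% of all genes, and a link to EZH2 was not tested.

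EZH1, the paralog known from non-dividing cells, had 47.8 and 31.4 normalised counts in control libraries, 39 and 30.1 under shControl, 20.5 and 19 under shMETTL3 and 29.98 and 36.9 under shMETTL14. Control and shControl libraries overlapped (log2 fold change -0.20, edgeR adjusted p = 0.69), and both shMETTL3 libraries were below shControl, a difference that was not called (log2 fold change -0.80, edgeR adjusted p = 0.098). Per gene length, EZH2 was at 0.0649 ± 0.00463 RPKM in control cells and EZH1 at 0.0493 ± 0.0145 (SD, n = 2), and with shControl they were at 0.0274 ± 0.00118 and 0.043 ± 0.00789. In control cells the means of EZH1 and EZH2 differed by about the SD of EZH1, and with shControl the order was the other way round, with no test made.

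EED and SUZ12 were called in none of the 4 comparisons, with log2 fold changes of 0.37 and -0.16 in senescence. JARID2 (chr6:15246206-15522273) had 340.1 and 324 normalised counts in control libraries, 429 and 403 under shControl, 791 and 792 under shMETTL3 and 614 and 556 under shMETTL14. The order shMETTL3, shMETTL14, shControl held without overlap. It rose 1.90-fold after METTL3 knockdown (log2 fold change 0.93, SE 0.13, edgeR adjusted p = 8.5e-06). This call held in all 19 alternative settings, with log2 fold changes of 0.57 to 1.55. It rose 1.41-fold after METTL14 knockdown (log2 fold change 0.49, SE 0.13, edgeR adjusted p = 0.0089), where the call was lost without either shControl replicate or without shMETTL14 replicate 1 (0.40 to 0.56 with 1 library left out). The difference between the knockdowns (log2 fold change -0.44, SE 0.13, edgeR adjusted p = 0.0099) was lost without shMETTL14 replicate 2 (-0.53 to -0.36 with 1 library left out) and with only the 2 groups fitted or an offset for gene length.

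A stretch of 30 bases across the start of EZH2 is shown because EZH2 was the only member whose window held the E2F letters TTTGGCGC on either strand. It covers chr7:148884272-148884301 on the minus strand of GRCh38.p14, with 10 bases before the start and 20 from it on. Capitals mark TTTGGCGC, which begins at base 2 of the transcript.
EZH2: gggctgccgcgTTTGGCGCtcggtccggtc
Over all windows 0.652% held these letters. A match in letters is a description and does not show that a factor binds there.

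The 12 lysine demethylases moved in both directions. In senescence 2 were higher and 2 lower, beside 13.3% of all genes called in each direction. After METTL3 knockdown 4 were higher and none lower, beside 12.3% and 11.2% of all genes. After METTL14 knockdown 2 were higher and 2 lower, beside 9.15% and 12% of all genes. KDM7A (chr7:139784546-139876741), which removes dimethyl groups from lysine 9 and lysine 27, had 37.2 and 46.1 normalised counts in control libraries, 100.5 and 92.4 under shControl, 83.1 and 60.8 under shMETTL3 and 79.96 and 85.3 under shMETTL14. All 6 senescent libraries were above both control libraries, and the 2.31-fold rise (log2 fold change 1.21, SE 0.22, edgeR adjusted p = 0.00015) was called in all 19 alternative settings. Neither knockdown was called against shControl (-0.43 and -0.22).

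KDM5B (chr1:202694313-202778598, hg19), which removes methyl groups from lysine 4, moved in opposite directions after the knockdowns. It had 289.6 and 284 normalised counts in control libraries, 476 and 432 under shControl, 630.0 and 683 under shMETTL3 and 251 and 292 under shMETTL14. It rose in senescence (log2 fold change 0.66, SE 0.14, edgeR adjusted p = 0.00059), rose further with shMETTL3 (log2 fold change 0.53, SE 0.13, edgeR adjusted p = 0.0045) and fell with shMETTL14 (log2 fold change -0.74, SE 0.14, edgeR adjusted p = 0.0003), where its libraries overlapped those of control cells (log2 fold change -0.081 against control). The direct difference was 2.42-fold (log2 fold change -1.27, SE 0.14, edgeR adjusted p = 7.1e-08), called in all 19 alternative settings. The rise with shMETTL3 was lost without shControl replicate 2 (0.45 to 0.59 with 1 library left out). The rise in senescence was lost with library size alone, as was the fall with shMETTL14.

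KDM5A, the paralog of KDM5B with the same substrate, had 221 and 240.3 normalised counts in control libraries, 233 and 222 under shControl, 293 and 359 under shMETTL3 and 149 and 204 under shMETTL14. It was not called in senescence (log2 fold change -0.024, edgeR adjusted p = 0.94), rose after METTL3 knockdown (log2 fold change 0.52, SE 0.15, edgeR adjusted p = 0.014) and was -0.37 (edgeR adjusted p = 0.12) after METTL14 knockdown. The rise was lost without either shControl replicate or without shMETTL3 replicate 2 (0.35 to 0.65 with 1 library left out) and with DESeq2 or an offset for gene length. The direct difference between the knockdowns was -0.89 (SE 0.16, edgeR adjusted p = 7.1e-05) on the log2 scale, called in all 19 alternative settings. KDM1A, which removes mono- and dimethyl groups from lysine 4, was called only in the direct comparison of the knockdowns (log2 fold change -0.61, SE 0.15, edgeR adjusted p = 0.0031), and this call was lost without shMETTL14 replicate 1 (-0.71 to -0.52 with 1 library left out).

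KDM4A, KDM4B and KDM4C remove trimethyl groups from lysine 9 and lysine 36. KDM4C (chr9:6757350-7175648, hg19) had 282 and 334 normalised counts in control libraries, 361 and 299 under shControl, 528 and 655 under shMETTL3 and 415 and 455 under shMETTL14. Both shMETTL3 libraries were above all the others (log2 fold change 0.84, SE 0.15, edgeR adjusted p = 0.00013), and those with shMETTL14 were above shControl without passing the test (log2 fold change 0.40, edgeR adjusted p = 0.059). The direct difference was called (log2 fold change -0.45, SE 0.14, edgeR adjusted p = 0.018), but it was 0.016 with an offset for gene length, and the call was lost without shMETTL3 replicate 2 or shMETTL14 replicate 1 (-0.58 to -0.26 with 1 library left out) and with DESeq2, only the 2 groups fitted, an offset for gene length or an offset for GC content. KDM4B had 176 and 145 normalised counts in control libraries, 108 and 116 under shControl, 210.3 and 174 under shMETTL3 and 124 and 146 under shMETTL14. It fell in senescence (log2 fold change -0.52, SE 0.18, edgeR adjusted p = 0.028) and rose after METTL3 knockdown (log2 fold change 0.78, SE 0.17, edgeR adjusted p = 0.0016), where its libraries overlapped those of control cells. The rises of KDM4B and KDM4C after METTL3 knockdown were called in all 19 alternative settings. Their log2 fold changes there ranged from 0.50 to 1.39 for KDM4B and from 0.42 to 1.47 for KDM4C. The fall of KDM4B in senescence was lost without either shControl replicate or without control replicate 1 (-0.65 to -0.37 with 1 library left out) and with DESeq2 or an offset for gene length. KDM4B was also lower with shMETTL14 than with shMETTL3 (log2 fold change -0.51, SE 0.17, edgeR adjusted p = 0.02), a difference that was lost without shMETTL3 replicate 1 or shMETTL14 replicate 1 (-0.62 to -0.35 with 1 library left out) and with DESeq2, only the 2 groups fitted or an offset for gene length. KDM4A was called in none of the 4 comparisons.

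KDM6B (chr17:7743235-7758108), which removes methyl groups from lysine 27, had 36.3 and 38.3 normalised counts in control libraries, 60.3 and 54.5 under shControl, 49.2 and 28.5 under shMETTL3 and 119.9 and 106 under shMETTL14. The shMETTL14 libraries were above all the others, 1.97-fold over shControl (log2 fold change 0.98, SE 0.23, edgeR adjusted p = 0.0026) and 2.93-fold over shMETTL3 (log2 fold change 1.55, SE 0.24, edgeR adjusted p = 1.1e-05). The second was called in all 19 alternative settings, and the first was lost without shControl replicate 2 or shMETTL14 replicate 1 (0.87 to 1.06 with 1 library left out). In senescence KDM6B was 0.62 (edgeR adjusted p = 0.081) and not called.

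KDM3A, which removes mono- and dimethyl groups from lysine 9, had 100.5 and 97.9 normalised counts under shControl, 121 and 127 under shMETTL3 and 151 and 140.1 under shMETTL14. It rose after METTL14 knockdown (log2 fold change 0.55, SE 0.18, edgeR adjusted p = 0.026), and this call was lost without any 1 library of shControl or shMETTL14 (0.48 to 0.60 with 1 library left out) and with DESeq2. KDM2B, a lysine 36 demethylase that also brings a variant Polycomb complex 1 to CpG islands, had 120.4 and 125 normalised counts in control libraries, 68.6 and 77.9 under shControl, 55.4 and 42.7 under shMETTL3 and 36 and 42.1 under shMETTL14. The groups stood in that descending order without overlap, with a called fall in senescence (log2 fold change -0.74, SE 0.20, edgeR adjusted p = 0.0056) and after METTL14 knockdown (log2 fold change -0.91, SE 0.24, edgeR adjusted p = 0.0064). After METTL3 knockdown it was -0.58 (edgeR adjusted p = 0.062). The first fall was lost without control replicate 2 or shControl replicate 1 (-0.83 to -0.65 with 1 library left out) and with DESeq2, and the second was lost without shControl replicate 2 or shMETTL14 replicate 1 (-1.03 to -0.82 with 1 library left out) and with library size alone. KDM2A and KDM3B were called in none of the 4 comparisons.

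The promoters of KDM4C and KDM3A are shown because they were the only members with the AP-1 letters TGACTCA on either strand, in 2 of 90 member windows (2.22%) and 4.95% of all windows. The bases before the start are given for chr9:6757723-6757972 and chr2:86441211-86441460, both on the plus strand of GRCh38.p14, with TGACTCA in capitals. It begins 59 bases before the start in KDM4C and 40 in KDM3A.
KDM4C: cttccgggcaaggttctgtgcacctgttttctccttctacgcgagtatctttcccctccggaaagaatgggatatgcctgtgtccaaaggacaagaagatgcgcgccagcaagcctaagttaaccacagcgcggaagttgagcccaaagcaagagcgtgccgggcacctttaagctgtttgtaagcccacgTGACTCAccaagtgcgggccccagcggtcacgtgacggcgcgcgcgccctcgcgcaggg
KDM3A: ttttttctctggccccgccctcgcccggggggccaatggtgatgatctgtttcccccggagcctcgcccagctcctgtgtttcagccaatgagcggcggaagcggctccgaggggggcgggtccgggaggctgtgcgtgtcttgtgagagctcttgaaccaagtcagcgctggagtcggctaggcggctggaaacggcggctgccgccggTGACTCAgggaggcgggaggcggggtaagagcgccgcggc

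**Figure D2:**
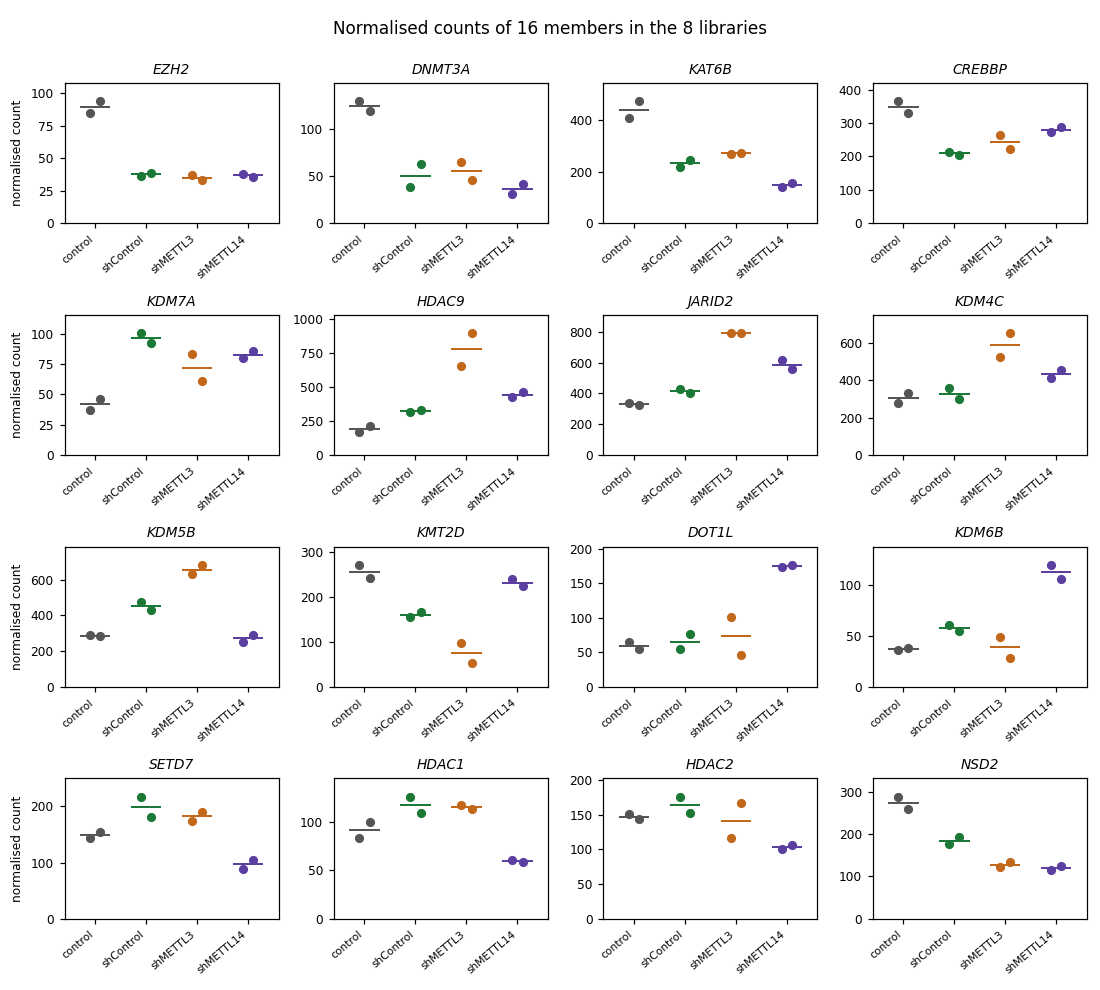
Normalised counts (y axis, from 0) of 16 members in the 4 groups (x axis), with a point for each library and a line for the mean of 2. EZH2 is low in all 6 senescent libraries, KMT2D and KDM5B lie on opposite sides of shControl in the knockdowns, and DOT1L and KDM6B are highest with shMETTL14.

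ASXL1 and ASXL2 are partners of BAP1 in the complex that removes ubiquitin from histone H2A. ASXL2 had 239 and 235 normalised counts under shControl, 306 and 353 under shMETTL3 and 321 and 305 under shMETTL14. Both knockdowns were above shControl in every library, by 0.48 (SE 0.14, edgeR adjusted p = 0.014) and 0.40 (SE 0.14, edgeR adjusted p = 0.041) on the log2 scale. The first call was lost without either shControl replicate or without shMETTL3 replicate 2 (0.35 to 0.56 with 1 library left out) and with DESeq2 or an offset for gene length, and the second was lost without any 1 library of control, shControl or shMETTL14 (0.35 to 0.44 with 1 library left out) and with DESeq2 or no filter on low counts. ASXL1 was called in none of the 4 comparisons.

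Of the 7 acetyltransferases, CREBBP, KAT6B and KAT2B fell in senescence and none rose, beside 13.3% of all genes called in each direction. CREBBP and EP300 are paralogs that acetylate H3 lysine 27 at enhancers, and the first was called in senescence while the second was not. CREBBP (chr16:3775056-3930121) had 366 and 330.0 normalised counts in control libraries, 214 and 205 under shControl, 264 and 221 under shMETTL3 and 273 and 288 under shMETTL14. It fell 1.66-fold in senescence (log2 fold change -0.73, SE 0.14, edgeR adjusted p = 0.00026) in all 19 alternative settings, and was higher with shMETTL14 than with shControl (log2 fold change 0.42, SE 0.15, edgeR adjusted p = 0.039), and the latter call was lost without any 1 library of control, shControl or shMETTL14 (0.38 to 0.45 with 1 library left out) and with DESeq2 or no filter on low counts. EP300 had 272 and 232 normalised counts in control libraries, 272 and 238 under shControl, 304 and 316 under shMETTL3 and 296 and 288 under shMETTL14. Its groups overlapped in senescence (log2 fold change 0.018, edgeR adjusted p = 0.95, 95% interval -0.27 to 0.31), and none of the 4 comparisons was called. With library size alone, where the median of all genes moved to -0.53 in senescence, EP300 was -0.48.

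KAT6B (chr10:76586171-76792380, hg19), which with KAT6A acetylates H3 in the MOZ and MORF complexes, had 406 and 473 normalised counts in control libraries, 219 and 244 under shControl, 268 and 272 under shMETTL3 and 139 and 156 under shMETTL14. The fall in senescence was 1.90-fold (log2 fold change -0.93, SE 0.14, edgeR adjusted p = 8.8e-06), in all 19 alternative settings. The shMETTL14 libraries were lower than all the others, against shControl (log2 fold change -0.65, SE 0.15, edgeR adjusted p = 0.0029) and against shMETTL3 (log2 fold change -0.87, SE 0.15, edgeR adjusted p = 5e-05), and the first of these was lost without shControl replicate 2 (-0.74 to -0.57 with 1 library left out) and with library size alone, whereas the second was called in all 19 alternative settings. KAT6B shares 11.4% of its span with a non-coding gene on the same strand. KAT6A was not called in the 4 comparisons (-0.065 in senescence, 95% interval -0.36 to 0.23). KAT2B, a coactivator acetyltransferase, was -1.29 (SE 0.39, edgeR adjusted p = 0.013) in senescence, on 10 and 18 raw counts under shControl. This call was lost without control replicate 2 or shControl replicate 1 (-1.72 to -0.96 with 1 library left out) and with DESeq2, and its paralog KAT2A was 0.18 (edgeR adjusted p = 0.77). KAT7, which acetylates H3 at replication origins and genes, was called in none of the 4 comparisons.

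Of the 3 class I deacetylases, 2 fell after METTL14 knockdown, where 12% of all genes were called lower. By edgeR at an adjusted p below 0.05 none of the 3 was called in senescence or after METTL3 knockdown. In each, 0 were at an unadjusted p below 0.05 and 0 were called by DESeq2. HDAC1, HDAC2 and HDAC3 are the catalytic subunits of corepressor complexes. HDAC1 (chr1:32757708-32799224) had 83.2 and 100.1 normalised counts in control libraries, 126 and 109 under shControl, 118 and 114 under shMETTL3 and 61 and 59 under shMETTL14. The shMETTL14 libraries were below the other 6, 1.96-fold under shControl (log2 fold change -0.97, SE 0.20, edgeR adjusted p = 0.00076) and 1.93-fold under shMETTL3 (log2 fold change -0.95, SE 0.20, edgeR adjusted p = 0.00045), each in all 19 alternative settings. HDAC2 had 176 and 152 normalised counts under shControl, 116 and 167 under shMETTL3 and 99.95 and 106 under shMETTL14, a fall against shControl (log2 fold change -0.67, SE 0.19, edgeR adjusted p = 0.01) that was lost without shControl replicate 1 or shMETTL14 replicate 1 (-0.78 to -0.56 with 1 library left out) and with DESeq2 or library size alone. HDAC3 was called in none of the 4 comparisons (-0.034 after METTL14 knockdown, 95% interval -0.57 to 0.51).

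Of the 4 class IIa genes, whose proteins have little deacetylase activity of their own and act as corepressors of MEF2 factors, HDAC4, HDAC5 and HDAC7 fell in senescence and HDAC9 rose. Over all genes 13.3% were called lower and 13.3% higher in senescence. HDAC9 (chr7:18126565-19042037, hg19) had 166 and 213 normalised counts in control libraries, 317 and 332 under shControl, 658 and 899 under shMETTL3 and 424 and 463 under shMETTL14. No library of one group overlapped another, and the order from low to high was control, shControl, shMETTL14 and shMETTL3. It rose 1.71-fold in senescence (log2 fold change 0.77, SE 0.17, edgeR adjusted p = 0.00077), 2.40-fold more with shMETTL3 (log2 fold change 1.26, SE 0.15, edgeR adjusted p = 9e-07) and 1.37-fold with shMETTL14 (log2 fold change 0.45, SE 0.16, edgeR adjusted p = 0.041). The first was lost with library size alone, the second was called in all 19 alternative settings, and the third was lost without any 1 library of control, shControl or shMETTL14 (0.38 to 0.49 with 1 library left out) and with DESeq2. The direct difference between the knockdowns was -0.81 (SE 0.15, edgeR adjusted p = 0.00013), and it was not called with an offset for gene length, HDAC9 being the longest member.

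HDAC7 had 114 and 81 normalised counts in control libraries and 60.3 and 65.7 under shControl (log2 fold change -0.63, SE 0.23, edgeR adjusted p = 0.043), and neither knockdown was called. HDAC4 was -0.58 (SE 0.17, edgeR adjusted p = 0.012) in senescence and HDAC5 -0.87 (SE 0.29, edgeR adjusted p = 0.024). The fall of HDAC7 was lost without any 1 library of shControl or shMETTL14 or without control replicate 1 (-0.85 to -0.36 with 1 library left out) and with DESeq2 or no ribosomal RNA rows. That of HDAC4 was lost without any 1 library of control or shControl (-0.60 to -0.55 with 1 library left out) and with DESeq2 or an offset for gene length, and that of HDAC5 was lost without either shControl replicate or without control replicate 1 (-1.06 to -0.65 with 1 library left out) and with DESeq2. HDAC5 also differed between the knockdowns, lower with shMETTL14 (log2 fold change -0.996, SE 0.32, edgeR adjusted p = 0.018), on 18 and 18 raw counts under shMETTL14, and this call was lost without either shMETTL14 replicate or without shMETTL3 replicate 2 (-1.06 to -0.90 with 1 library left out) and with DESeq2.

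Both DNA methyltransferases fell in senescence, where 13.3% of all genes were called lower. Relative to shControl neither enzyme was called by edgeR after a knockdown, with 0 at an unadjusted p below 0.05 and 0 by DESeq2 in each. DNMT1, which copies methylation to the new strand after replication, had 202 and 179 normalised counts in control libraries, 128 and 125 under shControl, 97.5 and 122 under shMETTL3 and 136 and 149.5 under shMETTL14. The fall was 1.51-fold (log2 fold change -0.60, SE 0.17, edgeR adjusted p = 0.008) and was lost without either shControl replicate or without control replicate 1 (-0.67 to -0.50 with 1 library left out) and with DESeq2. DNMT3A (chr2:25455830-25564784), which methylates unmethylated sites, had 129 and 119 normalised counts in control libraries, 37.8 and 62.3 under shControl, 64.6 and 45.6 under shMETTL3 and 31 and 41.1 under shMETTL14. All 6 senescent libraries were below both control libraries, and the 2.47-fold fall (log2 fold change -1.30, SE 0.23, edgeR adjusted p = 0.0001) was called in all 19 alternative settings. Against shControl it was 0.12 (edgeR adjusted p = 0.78) with shMETTL3 and -0.48 (edgeR adjusted p = 0.24) with shMETTL14.

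Of the TET dioxygenases, which oxidise 5-methylcytosine, TET1 had the largest fall of any member in senescence. TET1 (chr10:70320117-70454239, hg19) had 119 and 108 normalised counts in control libraries, 11.8 and 31.2 under shControl, 31.8 and 8.54 under shMETTL3 and 6.996 and 9.48 under shMETTL14. Its values per library are given because of this fall, that is, they were chosen after the values were seen. The libraries of both groups were far apart, and the fall was 5.19-fold (log2 fold change -2.38, SE 0.35, edgeR adjusted p = 7.3e-06), on 10 and 28 raw counts under shControl. It was called in all 18 alternative settings that could give it, with log2 fold changes of -3.23 to -1.85 when 1 library was left out. After METTL14 knockdown TET1 was -1.39 (edgeR adjusted p = 0.069). TET2 had 157 and 170.3 normalised counts under shControl, 259 and 247 under shMETTL3 and 143 and 195 under shMETTL14. It rose after METTL3 knockdown (log2 fold change 0.62, SE 0.16, edgeR adjusted p = 0.0056), a call that was lost without shControl replicate 1 (0.56 to 0.67 with 1 library left out) and with an offset for gene length. It shares 81.5% of its span with TET2-AS1 on the opposite strand. TET2 was also lower with shMETTL14 than with shMETTL3 (log2 fold change -0.58, SE 0.16, edgeR adjusted p = 0.0053), a difference that was lost without shMETTL14 replicate 1 (-0.81 to -0.39 with 1 library left out) and with an offset for gene length or an offset for GC content. TET3 was called in none of the 4 comparisons.

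**Figure D3:**
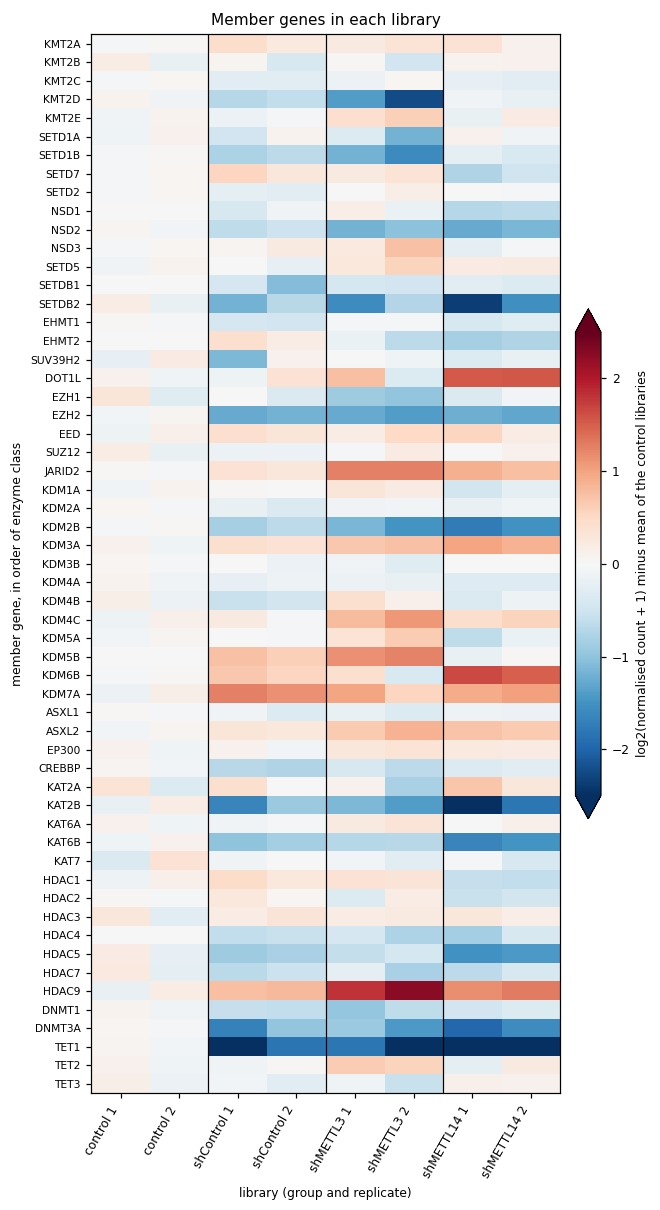
Each row is a member and each column a library, and colour gives log2(normalised count + 1) minus the mean of the 2 control libraries, from blue (lower) to red (higher), with the scale ending at -2.5 and 2.5. TET1, DNMT3A, EZH2, KAT6B and KDM2B are blue in all 6 senescent libraries, and HDAC9 and KDM7A are red in them.

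To compare levels between genes, counts were divided by gene length and effective library size, as RPKM, a level per length and library size, and no test was made. The highest mean over the groups was that of SETD5 (0.315 RPKM), followed by KMT2D (0.278), KDM5B (0.276) and KDM6B (0.232). The lowest were KAT2B (0.00958), TET1 (0.0170), HDAC4 (0.0237), KDM2B (0.0261) and HDAC9 (0.0265). In control cells KMT2D led at 0.393 ± 0.0323 RPKM (SD, n = 2), with SETD5 at 0.284 ± 0.0263 and HDAC2 at 0.234 ± 0.00773. With shControl KDM5B led at 0.301 ± 0.0209, next to SETD5 at 0.265 ± 0.0254 and HDAC2 at 0.262 ± 0.0267, whose SDs overlapped. With shMETTL3 KDM5B was at 0.435 ± 0.0247 and SETD5 at 0.38 ± 0.0547, a difference close to the SD of SETD5, and with shMETTL14 KDM6B led at 0.425 ± 0.036, ahead of KMT2D at 0.356 ± 0.0158 and SETD5 at 0.33 ± 0.0021. HDAC9 is among the lowest per length and yet has more counts than most members, and its gene is 915472 bases long.

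**Figure D4:**
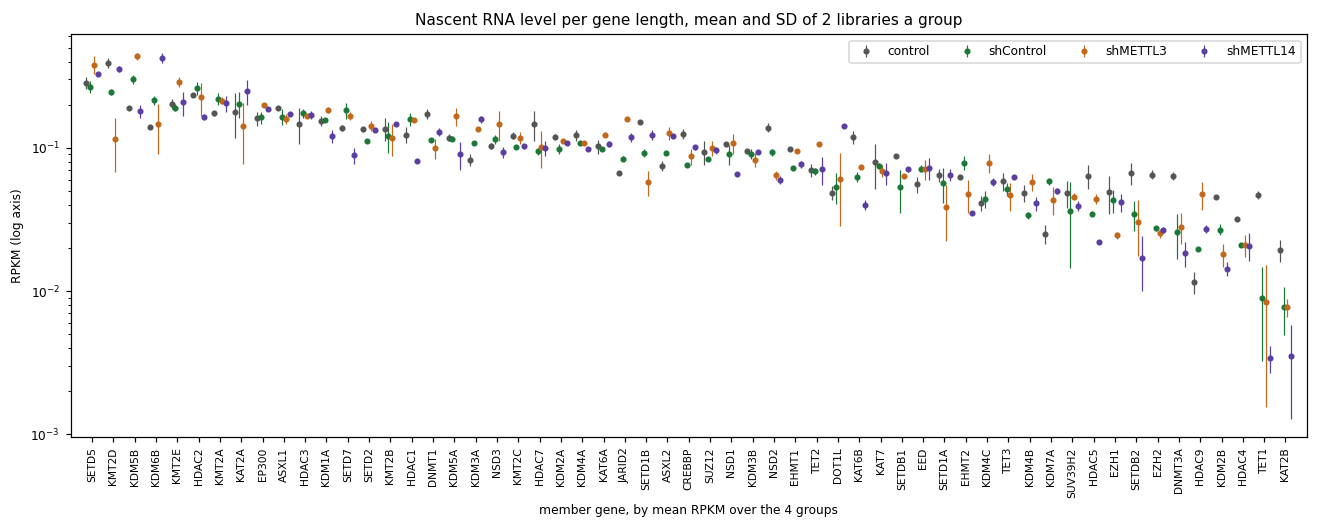
RPKM on a log axis (y) of the 57 tested members (x, from the highest to the lowest mean), with a point for the mean and a bar for the SD of 2 libraries in each group. SETD5 and KMT2D stand at the high end and TET1 and KAT2B at the low end, where the SDs are wide.

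Gene length moved with the changes after METTL3 knockdown. Members span 8253 to 915472 bases, with a median of 84285 among those tested against 33257 over all genes tested. Spearman's rho between length and log2 fold change was 0.54 over 57 members and 0.30 over 12844 genes after METTL3 knockdown, and -0.41 and -0.33 for shMETTL14 against shMETTL3. It was -0.17 and -0.11 in senescence, and 0.001 and -0.11 after METTL14 knockdown. With GC content of the gene body, rho was -0.43 over the members and -0.30 over all genes after METTL3 knockdown, and 0.42 and 0.37 for shMETTL14 against shMETTL3. These are descriptions across genes that share the same libraries, not tests. With an offset for gene length, chosen after the data were seen, 7 members rather than 11 rose after METTL3 knockdown, and 9 rather than 15 were lower with shMETTL14 than with shMETTL3, while 7 rather than 4 were higher. Over all genes these numbers were 1212 rather than 1574, 2114 rather than 2399 and 1961 rather than 2118. The 7 still called higher after METTL3 knockdown with this offset were HDAC9, JARID2, KDM4B, KDM4C, KDM5B, KMT2E and SETD5.

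**Figure D5:**
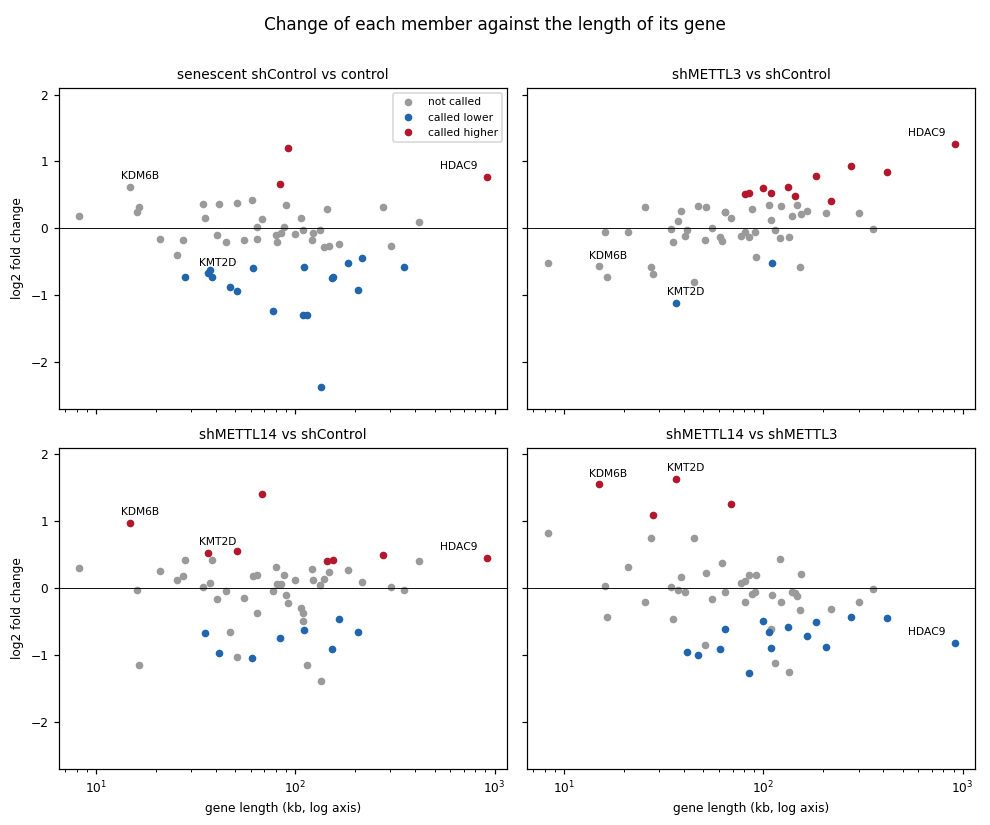
Log2 fold change (y) against gene length in kb (x, log axis) for the 57 tested members in 4 comparisons, with colour for the call. HDAC9, the longest member, has the highest value after METTL3 knockdown (1.26), and KMT2D, among the shorter members, the lowest called (-1.11).

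Genes with related functions that are not members were counted beside them. Of 107 such genes, 97 were tested, and in senescence 3 rose and 10 fell, with a median of -0.24 on the log2 scale, where 13.3% of all genes were called in each direction. After METTL3 knockdown 10 rose and 7 fell, beside 12.3% and 11.2% of all genes. After METTL14 knockdown 7 rose and 4 fell, beside 9.15% and 12% of all genes. In senescence the largest changes were falls. UHRF1, which brings DNMT1 to newly replicated DNA, had 68 and 94 raw counts in control libraries and 23 and 24 under shControl (log2 fold change -1.40, SE 0.30, edgeR adjusted p = 0.00081). PHF19, an accessory subunit of PRC2, was -1.24 (edgeR adjusted p = 0.043), and PHF2, a lysine 9 demethylase, was -1.07 (edgeR adjusted p = 0.0011). After METTL3 knockdown HDAC10 had 3 and 3 raw counts against 10 and 21 under shControl (edgeR adjusted p = 0.0032), and the arginine methyltransferase PRMT1 (log2 fold change -1.16, edgeR adjusted p = 0.00058) and the PRC1 subunit PCGF5 (log2 fold change -0.98, edgeR adjusted p = 0.0018) fell. After METTL14 knockdown BRPF1, a scaffold of the KAT6 complexes (log2 fold change 1.19, edgeR adjusted p = 0.015), and the acetyltransferase KAT5 (log2 fold change 1.19, edgeR adjusted p = 0.036) rose, and MTA3, a subunit of the HDAC1 and HDAC2 complex NuRD, fell (log2 fold change -0.98, edgeR adjusted p = 0.004).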

How the data were processed

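The deposited table held raw read counts per gene for 8 fastGRO-seq libraries. Per the file header and the study's methods, the authors counted hg19-aligned reads over whole gene bodies, introns included, with HOMER, 1 row per RefSeq gene, and the submitters' processing notes name STAR. Spike-in reads were not used here, and a uniform change of all genes is therefore invisible. All 8 count columns were mapped to samples by name and 0 were left unused. Of 27945 rows, 6423 had no counts. The 21 ribosomal RNA rows stayed in the table and TMM scaled each library, with a variant without them. Genes passing filterByExpr with a minimum count of 10 were fitted with all 4 groups in edgeR 4.0.16 (R 4.3.3), by the quasi-likelihood test with Benjamini-Hochberg adjustment over all 12844 genes. Normalised counts were counts divided by effective library size and multiplied by the mean effective size, and RPKM was computed here from counts and the deposited gene length.

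Members and lists were chosen with earlier results of these data known. Values per library are given for members with a mean of at least 50 counts among the 8 largest called changes in each direction of each comparison, and for EZH1, EZH2, EP300, CREBBP, SUV39H1, SUV39H2, DNMT1, METTL3 and METTL14. Other called members have fold changes, with raw counts for KAT2B and HDAC5 and values per library for TET1, chosen after their values were seen. Alternatives were DESeq2 1.42.0, other normalisations and filters, fits of 2 groups, a replicate block, a threshold of 0.01, and each library left out. Offsets for gene length and GC content were chosen after seeing the data. The scripts were tested on simulated data. Results for some genes are not reported here. Promoter windows came from RefSeq, GRCh38.p14.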

Additional observations from a re-analysis of the deposited data

Results flagged for a closer look

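The response of 19 members differed between the knockdowns by the direct test of shMETTL14 against shMETTL3 (edgeR's quasi-likelihood test, Benjamini-Hochberg adjustment over all genes), and each value below is that log2 difference. These were 4 of 57 members higher and 15 of 57 lower with shMETTL14, where 16.5% of all genes tested were called higher and 18.7% lower. The 4 that were higher with shMETTL14 were KMT2D (1.64), KDM6B (1.55), DOT1L (1.25) and SETD1B (1.10).

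Of the 15 that were lower with shMETTL14, 5 act on lysine 4, lysine 9 or lysine 36 as demethylases of 3 families, namely KDM5B (-1.27), KDM5A (-0.89), KDM1A (-0.61), KDM4B (-0.51) and KDM4C (-0.45). The methyltransferases among them were SETD7 (-0.92), NSD1 (-0.71) and NSD3 (-0.65), with the related KMT2E (-0.49), whose call was among those lost in several alternative settings. The deacetylases were HDAC5 (-0.996), HDAC1 (-0.95) and HDAC9 (-0.81). The remaining 3 were the acetyltransferase KAT6B (-0.87), the dioxygenase TET2 (-0.58) and the PRC2 subunit JARID2 (-0.44).

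In 10 of the 19 the log2 fold changes against shControl had opposite signs in the knockdowns. These 19 were selected by the direct test, which favours opposite signs, and both fold changes share the shControl libraries. The share of opposite signs over all genes was not counted, so the number is not read as a trait of the members. In KMT2D and KDM5B both fold changes were called. KMT2D was -1.11 with shMETTL3 and 0.53 with shMETTL14, and KDM5B was 0.53 and -0.74. The shMETTL3 libraries varied most, with a variance between replicates 6.03 times the sampling noise, beside 2.93 with shMETTL14, 1.60 with shControl and 1.81 in control cells, and the part of this spread in the differences was not tested. Across the 57 members the direct difference moved with gene length (Spearman's rho -0.41) and with GC content (0.42). With an offset for length KDM4B, KDM4C, KMT2E, JARID2, HDAC9, NSD1 and TET2 were not called, and with an offset for GC content SETD1B, TET2, KMT2E and KDM4C were not.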

How the results depend on the processing

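Of the changes called in the report, 6 of 21 in senescence, 4 of 13 after METTL3 knockdown, 3 of 16 after METTL14 knockdown and 8 of 19 in the direct comparison were called in every alternative setting that gave them a value. With library size alone the median of all genes was -0.53 in senescence, 0.58 after METTL3 knockdown, 0.35 after METTL14 knockdown and -0.25 in the direct comparison. Members called higher were then 1 in senescence, 34 with shMETTL3 and 18 with shMETTL14, and members called lower were 35, 0 and 2, with 24 lower in the direct comparison. All genes moved alike, with 752, 5287 and 3163 called higher (1711, 1574 and 1175 in the report's fit), 5015, 353 and 709 lower (1702, 1434 and 1545), and 3486 lower in the direct comparison (2399). Values smaller than the shift could change sign with it, among them EP300 in senescence (-0.48) and, after METTL3 knockdown, HDAC1 (0.60), NSD2 (0.0913) and SETD7 (0.49), as did members called in neither setting, such as DOT1L in senescence. With the offset for gene length KDM4C was reversed in the direct comparison (0.016). That offset gave 7 higher in senescence, 7 higher after METTL3 knockdown, and 7 higher and 9 lower in the direct comparison, with 1925, 1212, 1961 and 2114 of all genes. The offset for GC content gave 7 higher in senescence and 4 lower after METTL3 knockdown, with 2087 and 1528 of all genes. DESeq2 called 7 lower in senescence, 1 lower after METTL3 knockdown and 3 higher after METTL14 knockdown, with 908, 728 and 569 of all genes. At a threshold of 0.01 there were 9 lower in senescence, 1 lower after METTL3 knockdown and 3 higher after METTL14 knockdown, with 1045, 788 and 626 of all genes. Fitting only the compared groups gave 8 higher in senescence, with 2312 of all genes. The cause of these changes was not tested.

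With 1 library left out, members called higher ranged from 3 to 7 in senescence, 6 to 13 after METTL3 knockdown, 1 to 9 after METTL14 knockdown and 4 to 7 in the direct comparison. Members called lower ranged from 6 to 18, 1 to 6, 4 to 11 and 9 to 16. Over all genes those called higher ranged from 1066 to 2146, 769 to 1932, 486 to 1645 and 995 to 2697, and those called lower from 763 to 2145, 723 to 2060, 784 to 1930 and 1409 to 2712.

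The replicate block changed none of these counts (3 higher and 18 lower in senescence, 11 and 2 after METTL3 knockdown, 8 and 8 after METTL14 knockdown, and 4 and 15 in the direct comparison). The labels do not say what samples with the same number share. Their deviations from the group means correlated at -0.0624 to 0.26 over 6 pairs of groups and 6318 genes, highest for control with shMETTL3 (0.26) and shMETTL3 with shMETTL14 (0.103), and the numbers were not taken to pair the samples because not every pair was above 0.1.

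Depth limits 14 members with a mean under 50 counts, and SUV39H1 could not be tested. Each group had 2 libraries, and whether the table separates strands was not settled.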

Other observations

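Genes that work with the members but are not among them were counted by complex. Beside these counts, 13.3% of all genes were called higher and 13.3% lower in senescence. The shares were 12.3% and 11.2% after METTL3 knockdown and 9.15% and 12% after METTL14 knockdown. Among 8 tested partners of the COMPASS complexes, which carry the KMT2 and SETD1 enzymes, none was called in senescence or after either knockdown by edgeR at an adjusted p below 0.05, nor by DESeq2, with 1, 0 and 1 at an unadjusted p below 0.05 in senescence, after METTL3 and after METTL14 knockdown. WDR5 was higher with shMETTL14 than with shMETTL3. Of 20 tested partners of PRC1 and PRC2, 1 fell in senescence, the PRC2 accessory subunit PHF19. After METTL3 knockdown MTF2, another accessory subunit of PRC2, rose and CBX6 and PCGF5 of PRC1 fell, and after METTL14 knockdown PHC2 rose and CBX6 and RBBP7 fell.

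Among the tested partners in DNA methylation, UHRF1 fell in senescence. Among the corepressor partners, CHD3 of NuRD fell in senescence, NCOR1 and RCOR3 rose and CHD4 fell after METTL3 knockdown, and SIN3B rose while SIN3A and MTA3 fell after METTL14 knockdown. Of 12 other acetyltransferases and their partners, BRD1 and NCOA2 fell in senescence. Among 10 other deacetylases HDAC8 rose and HDAC10 fell after METTL3 knockdown. None was called in senescence or after METTL14 knockdown by edgeR or DESeq2, with 0 and 2 at an unadjusted p below 0.05. Of 8 other demethylases, KDM5C rose and PHF2 and PHF8 fell in senescence, JMJD1C and KDM6A rose after METTL3 knockdown, and PHF8 rose after METTL14 knockdown. Among 19 other methyltransferases, PRMT1 and SMYD3 rose and PRMT2 fell in senescence, PRMT3 and SMYD3 rose and PRMT1 fell after METTL3 knockdown, and PRMT5 rose after METTL14 knockdown.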
